A study of Mus musculus with 6 samples.

Results

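Heat shock proteins and their DnaJ partners fold new and damaged proteins, and heat shock genes are classic examples of promoter-proximal pausing, in which RNA polymerase II halts shortly after it starts. HSP70 proteins bind unfolded stretches of other proteins and use ATP to hold and release them, DnaJ proteins carry a J domain that brings clients to HSP70 and starts its ATP hydrolysis, and HSP110 proteins exchange the nucleotide. HSP90 acts on proteins that are nearly folded, small heat shock proteins bind unfolding proteins without ATP and are abundant in muscle, and the chaperonin HSP60 with its lid HSP10 folds proteins inside mitochondria. Heat shock factor 1 switches on the cytosolic genes when unfolded proteins accumulate, whereas the members of the endoplasmic reticulum (ER) answer to the unfolded protein response. The genes described here are those whose symbol starts with Dnaja, Dnajb, Dnajc, Hspa, Hspb, Hsp90, *Hspd1*, *Hspe1* or *Hsph1*, and 66 of the 14546 genes listed fitted this rule. Of these, 65 were among the 12451 genes tested, and *Hspb7* was left out by its low TSS values. The rule reads symbols only, and it also took *Hspb11*, *Hspbap1* and *Hspbp1*, which are not small heat shock proteins.

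Transcription was measured by PRO-seq, in which engaged polymerases in isolated nuclei add biotin-labelled nucleotides to the RNA they are making, and the labelled RNA is sequenced. The cells were proliferating mouse muscle stem cells (MuSCs, satellite cells), with 3 libraries of genotype Pax7CreERT/Suv4-20h1WT (Ctrl) and 3 of genotype Pax7CreERT/Suv4-20h1KO (*Kmt5b* sKO). Suv4-20h1 is the older name of *Kmt5b*, the enzyme that adds the second methyl group to lysine 20 of histone H4. Both genotypes carried a tamoxifen-inducible Cre driven by *Pax7*, a gene of satellite cells, so that the deletion arose in cells that expressed *Pax7* at the time. The mice were on a C57BL/6 background, of both sexes, and received tamoxifen as adults, from 8 weeks of age. MuSCs were then purified with magnetic beads and grown in medium with serum, LIF and bFGF. The study calls its PRO-seq libraries biological replicates. The labels do not say whether the libraries of a genotype came from separate animals or cultures, and p-values therefore measure only the spread between these libraries.

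Values were given for the TSS region, the first 400 nt of 1 isoform per gene, as RPM. These are reads after scaling the TSS reads of each library to 1 fixed total. For the gene body, the rest of the transcript, they were given as TPM, which also divides by length and was scaled apart from the TSS reads. The pausing index is the TSS value divided by the gene body value. A shift of TSS against gene body reads that all genes share is removed by this scaling and cannot show in the index. A rise or fall of transcription that all genes share is removed as well. The TSS and gene body estimates are therefore relative to the library total, and do not measure absolute transcription. The listed genes held 926904 to 3246052 reads per library in TSS regions and 7425419 to 16249142 in gene bodies. The median member had 61.5 to 172 TSS reads and 240.0 to 603.5 gene body reads, and *Kmt5b* sKO library 2 was the shallowest. *Kmt5b* itself was not lower in the *Kmt5b* sKO libraries. Its gene body values were 30.6, 35.4 and 38.5 TPM across Ctrl libraries and 37.8, 35.0 and 42.6 TPM across *Kmt5b* sKO libraries (log2 fold change 0.14, SE 0.14, adjusted p = 0.706), and its TSS values were 93.7, 87.3 and 102 RPM across Ctrl libraries and 120.0, 107 and 113 RPM across *Kmt5b* sKO libraries (adjusted p = 0.721). The sources used here do not say which exons are deleted, so these values over the whole gene do not check the labels. The libraries numbered 3 stood apart in the ER genes described here, Ctrl library 3 upwards and *Kmt5b* sKO library 3 downwards, and the estimates of these genes are given with and without them. Values are given in the order of replicates 1, 2 and 3 throughout.

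As a group, heat shock protein and DnaJ genes had gene body values somewhat above those of the median gene, and higher TSS values. The median gene body value over members was 18.9 TPM against 15.8 TPM for all genes tested (means of the 6 libraries), and 38 of 65 members lay above the latter. The median TSS value was 38.5 RPM against 23.0 RPM. Members took between 0.520% and 0.641% of the listed gene body TPM per library, and the top 5 members held 43.4% to 51.1% of that. These were *Hsp90ab1*, the constitutive cytosolic HSP90, with a mean of 474 TPM, *Hspa8*, the constitutive cytosolic HSP70, with 366 TPM, *Hspa5*, the HSP70 of the ER known as BiP, with 265 TPM, the small heat shock protein gene *Hspb8* with 252 TPM, and *Hsp90aa1*, the stress-inducible HSP90, with 166 TPM. The lowest were *Dnajc5b* with 0.508 TPM, *Hspa1l* with 2.72 TPM, *Hspa12b* with 3.04 TPM, *Dnajc12* with 3.58 TPM and *Hspb11* with 6.51 TPM. The same 5 genes stood at each end when the Ctrl libraries were taken alone. The order of neighbours was mostly not resolved: for 62 of the 64 neighbouring pairs in the order of means, the ranges over the 6 libraries overlapped. This included each of the top 5 and the next gene below it. The pairs without overlap, *Hspb11* with *Dnajc12* and *Hspa1l* with *Dnajc5b*, were at the low end.

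**Figure D1:**
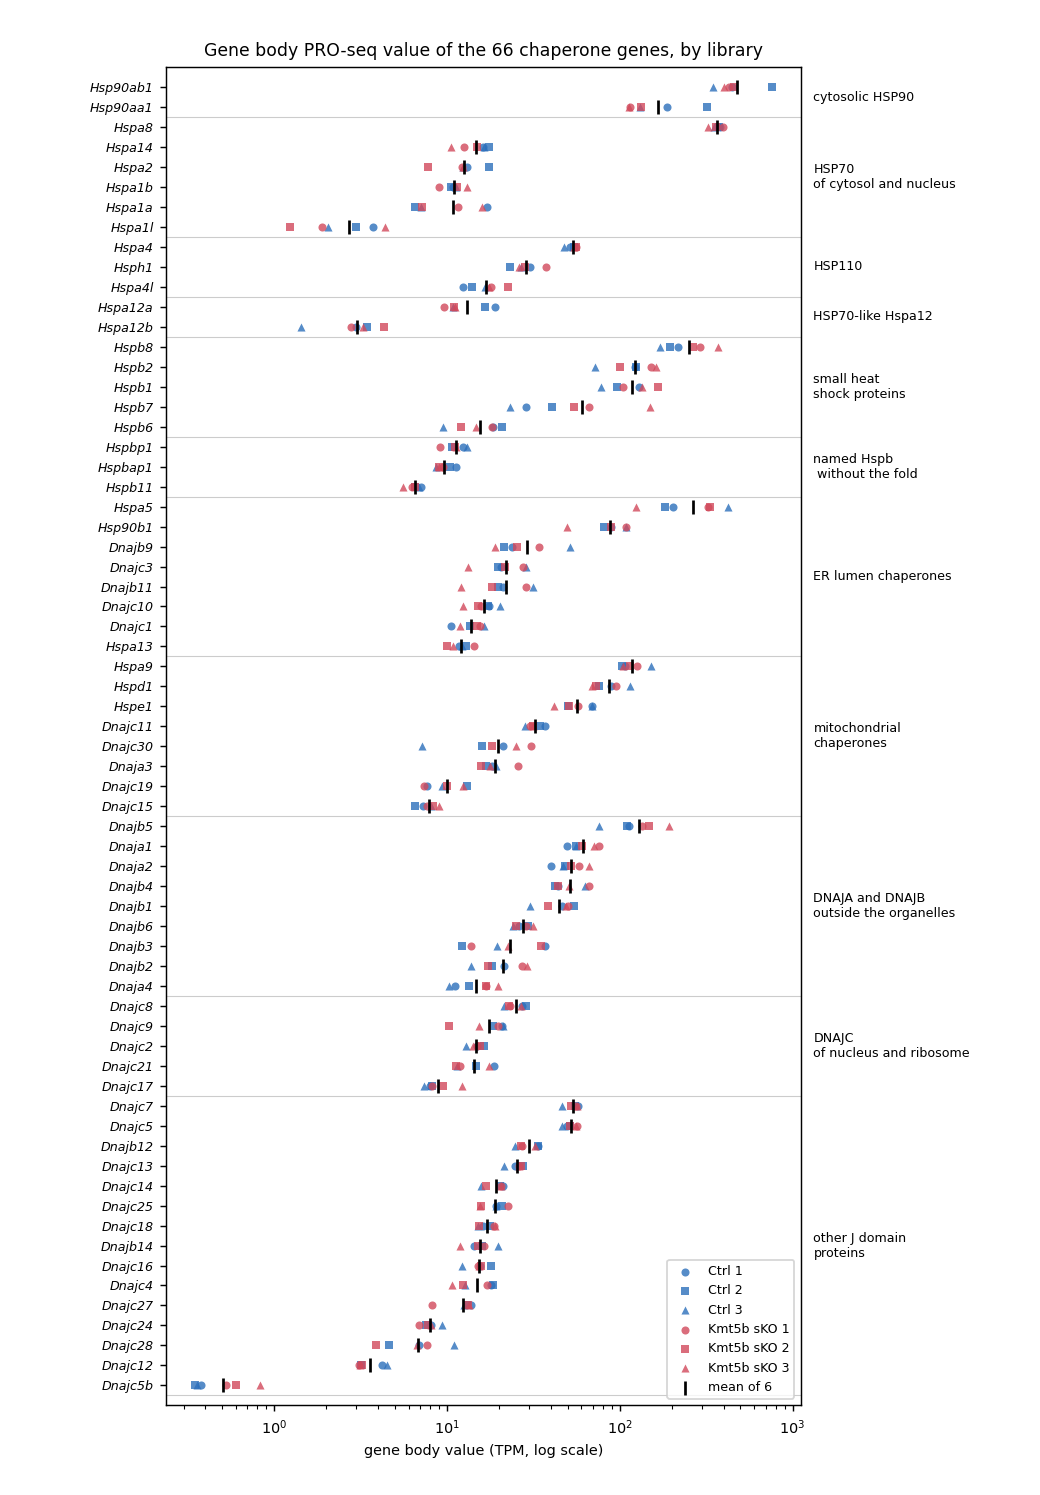
Gene body transcription (TPM, log axis) of the heat shock protein and DnaJ genes in each of the 6 libraries, grouped by role, with Ctrl and *Kmt5b* sKO libraries in separate colours. Points of both genotypes mingle for most genes, and the levels run from 0.508 TPM (*Dnajc5b*) to 474 TPM (*Hsp90ab1*) as means of the 6 libraries.

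No member changed in scaled values between the genotypes at the threshold used, a Benjamini-Hochberg adjusted p under 0.1 with limma over all genes. In the TSS region, 0 of 65 members were called higher, against 0.932% of all genes tested, and 0 lower, against 0.731%. In the gene body, 0 were called higher, against 1.61% of all genes, and 0 lower, against 1.38%. For the pausing index, 0 of 63 were called in either direction, against 0% of all genes higher and 0% lower. By limma's p before adjustment, at 0.05, 5 members were higher and 3 lower for TSS values, against 7.35% and 3.65% of all genes. For gene bodies, 6 were higher and 2 lower, against 9.45% and 6.46%, and for the pausing index 1 and 0, against 2.55% and 1.45%. With reads recovered from the values, edgeR called 1 member higher and 0 lower by TSS values, against 1.04% and 1.20% of all genes, and 2 higher and 0 lower by gene body values, against 3.17% and 2.84%. DESeq2 called 1 higher and 0 lower by TSS values, against 1.08% and 1.29%, and 3 higher and 2 lower by gene body values, against 5.73% and 4.67%. All these counts are close to or below the shares of all genes. The median log2 fold change over members, *Kmt5b* sKO against Ctrl on the log2(value + 0.5) scale, was 0.07 in the TSS region (0.08 over all genes) and -0.04 in the gene body (0.02 over all genes). The gene body median turned to 0.011 without *Kmt5b* sKO library 3, and leaving out 1 library at a time put the TSS median between 0.0057 (without *Kmt5b* sKO library 1) and 0.11 (without *Kmt5b* sKO library 3). The scale understates changes of low values.

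All 3 *Kmt5b* sKO libraries lay above all 3 Ctrl libraries for 4 members in the TSS region, against 10.2% of all genes tested, and below them for 2 members, against 5.33%. In the gene body, 8 members lay above, against 12.0% of all genes, and 4 below, against 9.34%. In the pausing index, 4 members lay above, against 5.93% of all genes, and 2 below, against 3.09%. With 65 members, these counts are near or under the shares for all genes, and no comparison of a group of members with other genes was tested. The members with such separated libraries are named with their roles below, as a description.

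**Figure D2:**
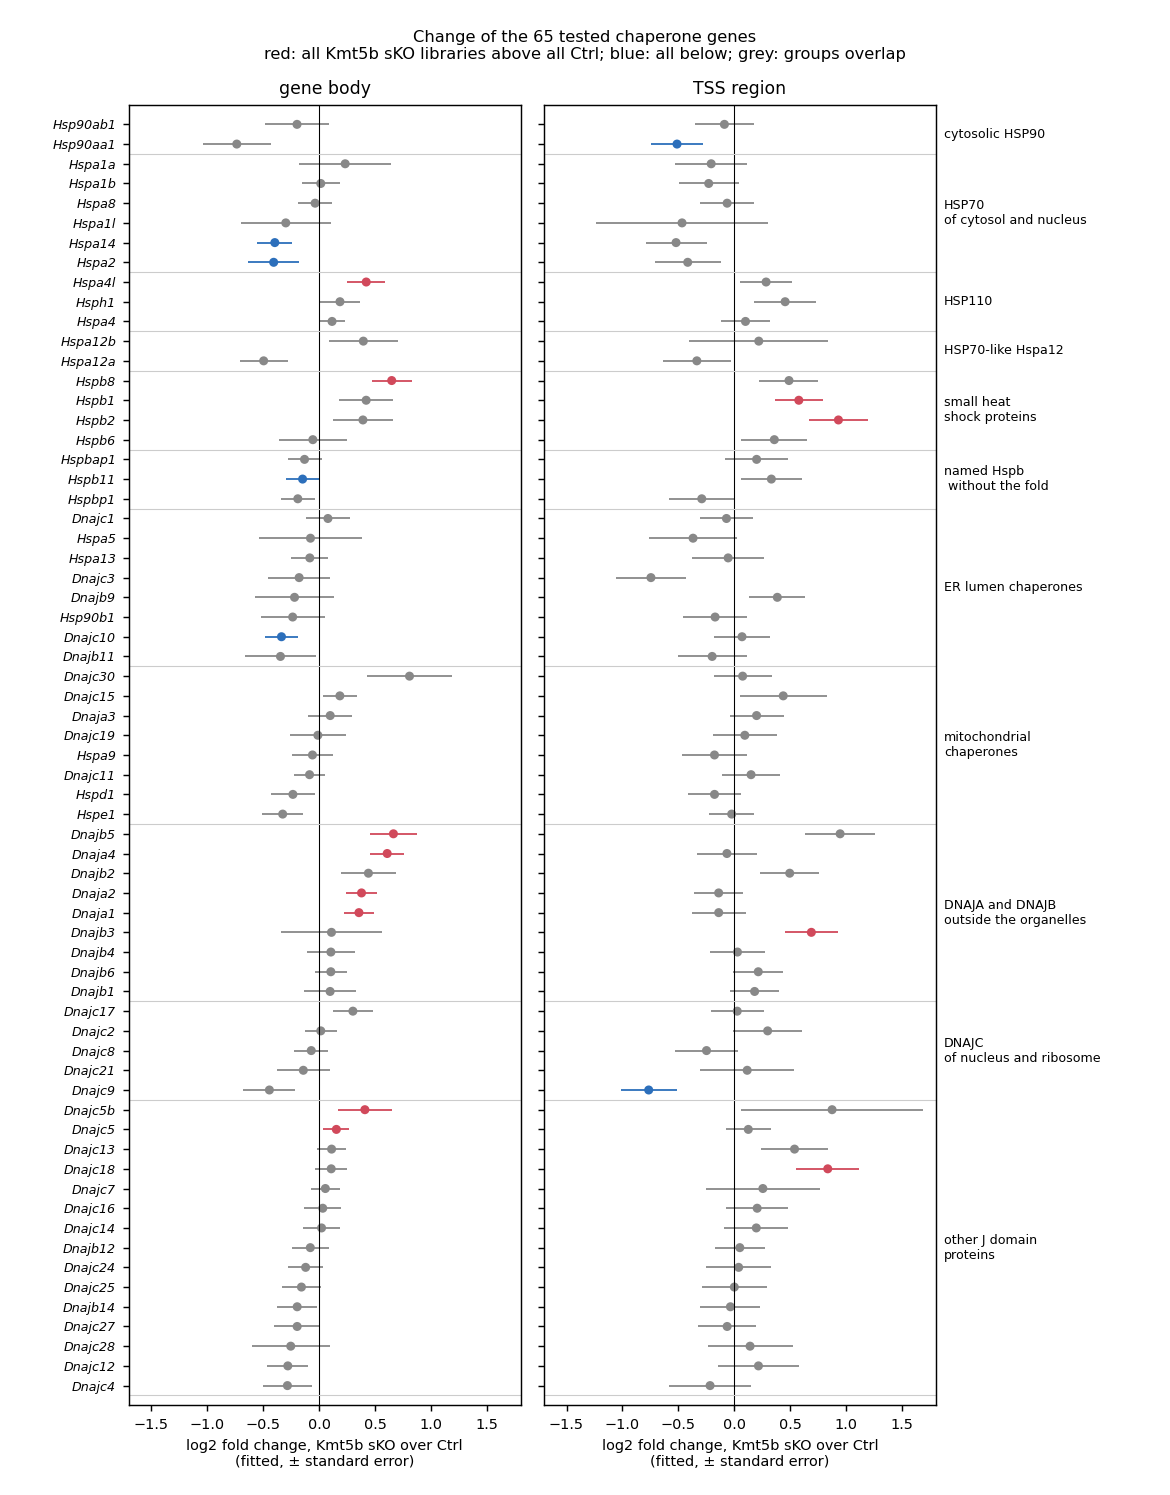
Log2 fold change (*Kmt5b* sKO over Ctrl, with its SE) of the 65 members tested in the gene body and in the TSS region, grouped by role, each from 3 against 3 libraries. Red marks members with all *Kmt5b* sKO libraries above all Ctrl libraries, blue those with all below and grey those that overlap, and no member passed the adjusted threshold.

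Both cytosolic HSP90 genes had lower mean values in *Kmt5b* sKO, and both had their highest gene body value in Ctrl library 2. The gene body values of *Hsp90aa1* were 187, 321 and 131 TPM across Ctrl libraries and 114, 132 and 113 TPM across *Kmt5b* sKO libraries (log2 fold change -0.73, SE 0.30, adjusted p = 0.302). The Ctrl values spanned more than the distance between the groups, and Ctrl library 3 lay inside the *Kmt5b* sKO range. Without Ctrl library 3, limma gave a log2 fold change of -1.04 with an adjusted p of 0.077, and the gene was then called lower, whereas without Ctrl library 2 the estimate was -0.39. DESeq2 on the recovered reads also called it lower (log2 fold change -0.84, adjusted p = 0.0389). In the TSS region, its values were 500.4, 298 and 397 RPM across Ctrl libraries and 239, 297 and 287 RPM across *Kmt5b* sKO libraries, with all *Kmt5b* sKO libraries below all Ctrl libraries, though Ctrl library 2 and *Kmt5b* sKO library 2 were nearly equal (log2 fold change -0.51, SE 0.23, adjusted p = 0.417). The gene body values of *Hsp90ab1* were 448, 761 and 349 TPM across Ctrl libraries and 431, 457 and 401 TPM across *Kmt5b* sKO libraries (log2 fold change -0.20), and the groups overlapped. Ctrl library 2 combined its high gene body value with the lowest TSS value of *Hsp90ab1*, 488 RPM, which gave a pausing index of 0.641 there. These values carry a limit of mapping: 61.6% of the 36-nt stretches of the *Hsp90aa1* transcript also occur in transcripts of other genes, and a read that fits several places was put at 1 of them at random.

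The major cytosolic HSP70, *Hspa8*, hardly varied. Its gene body values were 382, 378 and 350.5 TPM across Ctrl libraries and 399, 363 and 325 TPM across *Kmt5b* sKO libraries (log2 fold change -0.04, SE 0.15, adjusted p = 0.950), and the groups overlapped fully. Of its 36-nt stretches, 90.3% also occur in other genes' transcripts, and its introns host the small nucleolar RNA genes Snord14c, Snord14d and Snord14e. The heat-inducible pair *Hspa1a* and *Hspa1b* was low in these cells. *Hspa1a* had gene body values of 17.1, 6.50 and 7.09 TPM across Ctrl libraries and 11.6, 7.14 and 15.9 TPM across *Kmt5b* sKO libraries (log2 fold change 0.23), with 1 Ctrl library above every *Kmt5b* sKO library. *Hspa1b* had 10.8, 10.6 and 11.4 TPM across Ctrl libraries and 8.99, 11.4 and 13.1 TPM across *Kmt5b* sKO libraries (log2 fold change 0.02). The pair are near copies 9952 nt apart on chromosome 17, and their promoter windows share 98.7% of their bases, so their reads may have been split between them at random. All 6 genes of the cytosolic and nuclear HSP70 group had negative TSS estimates, 4 of 6 had negative gene body estimates, and 0 of 6 were called. Over all genes tested, 58.2% had a positive TSS estimate and 53.8% a positive gene body estimate. The signs of *Hspa1a* and *Hspa1b* may not be independent, and *Hspa1l* had mean TSS values of only 1.57 RPM in Ctrl and 1.07 RPM in *Kmt5b* sKO.

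Lower *Kmt5b* sKO values without overlap were found for the gene bodies of *Hspa2*, the HSP70 best known from male germ cells, and *Hspa14*, an HSP70-like protein of the ribosome. *Hspa2* had 13.0, 17.5 and 12.4 TPM across Ctrl libraries and 12.2, 7.76 and 12.4 TPM across *Kmt5b* sKO libraries on 12 to 47 reads per library (log2 fold change -0.41). *Hspa14* had 16.2, 17.6 and 16.4 TPM across Ctrl libraries and 12.6, 15.0 and 10.6 TPM across *Kmt5b* sKO libraries (log2 fold change -0.40, SE 0.16, adjusted p = 0.286). The nearest *Hspa2* libraries of the genotypes, at 12.44 and 12.43 TPM, differed by less than 1 read is worth.

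The HSP110 exchange factors had positive estimates in both regions in 3 of 3 genes, and 0 were called. The gene body of *Hspa4l*, at 12.4, 14.0 and 16.7 TPM across Ctrl libraries and 18.1, 22.6 and 17.4 TPM across *Kmt5b* sKO libraries, separated the groups (log2 fold change 0.42, SE 0.17, adjusted p = 0.286). *Hsph1*, the heat-inducible HSP110, had 30.3, 23.2 and 26.8 TPM across Ctrl libraries and 37.5, 28.4 and 26.3 TPM across *Kmt5b* sKO libraries (log2 fold change 0.19), and *Hspa4* had a log2 fold change of 0.12. For the divergent HSP70-like genes *Hspa12a* and *Hspa12b* the gene body estimates were -0.49 and 0.40. Without Ctrl library 3, that of *Hspa12a* was -0.72 with an adjusted p of 0.058 with limma, and DESeq2 gave -0.57 with an adjusted p of 0.0822.

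Promoter sequences of 3 heat-responsive genes are shown because they hold exact matches to the heat shock element, the site of heat shock factors, in different arrangements. These are a single match of 2 units in *Hspa1a*, overlapping matches in *Hspd1*, and separate matches on both sides of the start in *Hsph1*. Units that differ from the pattern by a letter were not searched for. Each runs from 250 bases before to 50 bases after the RefSeq start (build GRCm38.p6), 5′ to 3′ on the gene's strand, at chr17:34972107-34972406 (minus strand), chr1:55087883-55088182 (minus strand) and chr5:149636287-149636586 (minus strand). Capitals mark every match to GAANNTTC or TTCNNGAA, read on both strands.
Hspa1a: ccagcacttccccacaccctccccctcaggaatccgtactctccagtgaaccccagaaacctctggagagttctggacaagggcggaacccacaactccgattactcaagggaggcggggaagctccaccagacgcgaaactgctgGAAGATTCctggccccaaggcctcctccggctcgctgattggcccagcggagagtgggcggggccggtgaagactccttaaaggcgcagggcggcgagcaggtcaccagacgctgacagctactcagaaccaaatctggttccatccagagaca
Hspd1: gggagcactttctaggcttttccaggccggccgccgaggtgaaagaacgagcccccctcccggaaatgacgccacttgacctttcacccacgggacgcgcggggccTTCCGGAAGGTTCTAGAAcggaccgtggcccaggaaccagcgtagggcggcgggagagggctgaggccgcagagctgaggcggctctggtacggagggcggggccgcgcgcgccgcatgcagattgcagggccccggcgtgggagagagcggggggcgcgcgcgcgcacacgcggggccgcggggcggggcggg
Hsph1: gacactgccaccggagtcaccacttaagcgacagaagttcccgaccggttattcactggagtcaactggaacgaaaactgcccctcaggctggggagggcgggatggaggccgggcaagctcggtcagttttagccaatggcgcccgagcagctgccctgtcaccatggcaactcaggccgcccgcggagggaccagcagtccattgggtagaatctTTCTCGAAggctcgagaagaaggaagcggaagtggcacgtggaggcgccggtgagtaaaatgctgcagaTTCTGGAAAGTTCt
In *Hspa1a* the match starts 104 bases before the start, in *Hspd1* the capital run starts 144 bases before it, and in *Hsph1* matches start 33 bases before it and at bases 37 and 42, counted with the start as base 1. A window was found for 53 of 66 members, and for 42 of them the RefSeq start lay within 50 nt of the start listed. A match of 2 units was present in 14 of 53 windows (26.4%), against 15.1% of all 32851 windows: *Dnaja1*, *Dnaja4*, *Dnajb4*, *Dnajb6*, *Dnajc10*, *Dnajc27*, *Hspa1a*, *Hspa1b*, *Hspb1*, *Hspb6*, *Hspb8*, *Hspd1*, *Hspe1* and *Hsph1*. A run of 3 units at the same spacing, which contains matches of 2 units, was present in 4 windows (7.55%, against 0.603%): *Dnajb6*, *Hspd1*, *Hspe1* and *Hsph1*. The *Hspd1* and *Hspe1* windows lie on opposite strands and overlap, and they hold the same run. A CCAAT box was present in 34.0% of the members' windows and 37.4% of all, TATAAA in 5.66% and 13.6%, and TGACGTCA in 1.89% and 1.79%. These matches describe letters in the windows.

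Of the groups by role, the small heat shock protein genes had the highest median estimates, 0.53 for TSS values and 0.41 for gene bodies, and 0 of the 4 tested were called. This order did not hold with both libraries 3 left out, where their medians were 0.29 and 0.12, against 0.30 and 0.29 for HSP110 and, in the gene body, 0.32 for DnaJ types A and B and 0.24 for ER members. *Hspb1* (HSP27), *Hspb2*, *Hspb6*, *Hspb7* and *Hspb8* encode proteins of this family in muscle, several of which sit at the sarcomere or in the cytosol. *Hspb2* had the lowest adjusted p of any member in the TSS region. Its TSS values were 39.2, 41.4 and 30.5 RPM across Ctrl libraries and 75.7, 47.5 and 96.6 RPM across *Kmt5b* sKO libraries, or 37.0 ± 5.76 against 73.3 ± 24.6 RPM (SD, n = 3 each; log2 fold change 0.93, SE 0.26, adjusted p = 0.107). Every *Kmt5b* sKO library lay above every Ctrl library, with library 2 nearest to them. Both edgeR and DESeq2 called this gene higher in the TSS region, with adjusted p of 0.0905 and 0.0800. The gene body of *Hspb2*, at 123, 124 and 71.9 TPM across Ctrl libraries and 151, 101 and 163 TPM across *Kmt5b* sKO libraries, did not separate the groups (log2 fold change 0.39, adjusted p = 0.562). *Hspb2* lies beside *Cryab*, the small heat shock protein alpha B-crystallin, which overlaps it on the opposite strand.

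*Hspb8*, a partner of the co-chaperone BAG3 in muscle, had gene body values of 218, 196 and 171 TPM across Ctrl libraries and 290.0, 265 and 369 TPM across *Kmt5b* sKO libraries, or 195 ± 23.6 against 308 ± 54.0 TPM (SD, n = 3 each; log2 fold change 0.65, SE 0.18, adjusted p = 0.140). Its libraries did not overlap, and edgeR and DESeq2 on the recovered reads called the gene higher, with adjusted p of 0.0687 and 0.00855. *Hspb1* had TSS values of 179, 151 and 172 RPM across Ctrl libraries and 262, 206 and 287 RPM across *Kmt5b* sKO libraries, again without overlap (log2 fold change 0.57, SE 0.21, adjusted p = 0.260), while its gene body, at 129.7, 96.0 and 77.6 TPM across Ctrl libraries and 104, 167 and 134 TPM across *Kmt5b* sKO libraries, overlapped between the groups. Of the *Hspb1* transcript, 64.1% of 36-nt stretches also occur in other genes. *Hspb6* had a TSS estimate of 0.36 and a gene body estimate of -0.06. *Hspb7*, the member that was not tested, had 0 or 1 read in the TSS region of every library. Its gene body values, on 137 to 591 reads, were 28.6, 40.8 and 23.2 TPM across Ctrl libraries and 66.4, 54.3 and 149.9 TPM across *Kmt5b* sKO libraries, all *Kmt5b* sKO libraries above all Ctrl libraries (log2 fold change 1.42, SE 0.39, adjusted p = 0.15 with limma and no filter on low values).

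Summed over the 5 small heat shock protein genes, the gene bodies held 518, 478 and 353 TPM across Ctrl libraries and 630, 599.5 and 830.0 TPM across *Kmt5b* sKO libraries, the lowest in Ctrl library 3 and the highest in *Kmt5b* sKO library 3. Markers of differentiating myocytes moved the same way. Their summed gene body values, over a list of 8 genes, ran from 2094 to 3999 TPM in Ctrl and from 4022 to 5254 TPM in *Kmt5b* sKO. All *Kmt5b* sKO libraries lay above all Ctrl libraries for 2 of 8 markers, against 12.0% of all genes tested, and 0 were called higher, against 1.61%. A list of 5 mature fibre genes, of which 2 were tested, ran from 101 to 269 TPM in Ctrl and from 249 to 540 TPM in *Kmt5b* sKO. Satellite cell and myoblast markers, which define the labelled cells, held 1574 to 2308 TPM in Ctrl and 2077 to 2790 TPM in *Kmt5b* sKO, with 0 of 8 called. Markers of other cells were low, with 2.50 to 4.23 against 4.38 to 5.05 TPM for endothelial cells, 6.01 to 17.99 against 13.0 to 13.9 TPM for fibroblasts, and 8.75 to 11.7 against 15.8 to 25.8 TPM for Schwann cells, of which *Sox10* was called higher (no gene was called in the gene body without Ctrl library 1 or without any 1 of the *Kmt5b* sKO libraries). Of 5 blood and macrophage markers, *Cd68*, a lysosomal gene that other cells also use, was listed, at 214 to 402 against 319 to 326 TPM. The part of these markers in the small heat shock protein values was not tested, and in bulk samples more cells of a type and more transcription per cell cannot be told apart.

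The DnaJ proteins of types A and B outside the organelles, the main J domain partners of cytosolic HSP70, had positive gene body estimates in 9 of 9 genes, with a median of 0.36, and 0 of 9 were called. Over all genes tested, 53.8% had a positive gene body estimate. In 4 of the 9 genes all *Kmt5b* sKO libraries lay above all Ctrl libraries, against 12.0% of all genes tested. The type B genes *Dnajb12* and *Dnajb14* were placed with the other J domain proteins and not in this group. Their gene body estimates were negative, at -0.08 and -0.20. The groups were drawn with earlier results of these data known, and this group was not tested against other genes. *Dnaja4*, a type A DnaJ, had 11.2, 13.4 and 10.2 TPM across Ctrl libraries and 16.9, 16.9 and 19.9 TPM across *Kmt5b* sKO libraries (log2 fold change 0.61, SE 0.15, adjusted p = 0.123). Its TSS estimate was -0.07, and *Wdr61* overlaps the gene on the opposite strand. *Dnaja4* was called higher in the gene body by edgeR (adjusted p = 0.0821) and DESeq2 (adjusted p = 0.0204), and by limma with library medians set equal (adjusted p = 0.0814). *Dnajb5*, also called HSC40, had 113, 109.6 and 75.8 TPM across Ctrl libraries and 134, 147 and 192 TPM across *Kmt5b* sKO libraries (log2 fold change 0.66, SE 0.21, adjusted p = 0.185), and in the TSS region 64.2, 85.6 and 29.9 RPM across Ctrl libraries and 79.7, 101 and 148 RPM across *Kmt5b* sKO libraries (log2 fold change 0.94, SE 0.31, adjusted p = 0.188). Ctrl library 3 was low in both regions, and the TSS groups overlapped. DESeq2 called the gene body higher (adjusted p = 0.0334). Without Ctrl library 2, limma called *Dnajb5* higher in the TSS region, with a log2 fold change of 1.26 and an adjusted p of 0.0328.

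*Dnaja1*, a general partner of *Hspa8*, had gene body values of 49.8, 55.5 and 55.8 TPM across Ctrl libraries and 76.0, 60.6 and 70.6 TPM across *Kmt5b* sKO libraries, separated by a small margin (log2 fold change 0.36, SE 0.13, adjusted p = 0.254), and a TSS estimate of -0.14. *Dnaja2*, of the same class, had 40.2, 48.3 and 46.7 TPM across Ctrl libraries and 58.4, 52.2 and 66.1 TPM across *Kmt5b* sKO libraries (log2 fold change 0.38, SE 0.14, adjusted p = 0.252). *Dnajb3*, known mainly from testis, separated the groups in the TSS region, with 34.4, 27.6 and 40.2 RPM across Ctrl libraries and 58.7, 58.1 and 47.4 RPM across *Kmt5b* sKO libraries (log2 fold change 0.69, SE 0.24, adjusted p = 0.216), but had only 9 to 35 gene body reads per library. *Dnajb1*, the heat-inducible HSP40 that works with *Hspa1a*, had 46.6, 54.1 and 30.2 TPM across Ctrl libraries and 50.1, 38.4 and 48.8 TPM across *Kmt5b* sKO libraries (log2 fold change 0.10), and the groups overlapped. With both libraries 3 left out, the *Dnajb1* estimate turned to -0.19.

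Most ER lumen members spread widely within genotypes, and *Hspa5* had the widest gene body spread of all members tested. The ER lumen members are *Hspa5*, *Hsp90b1* (the HSP90 of the ER, GRP94), *Hspa13*, and the J domain partners *Dnajb9*, *Dnajb11*, *Dnajc1*, *Dnajc3* and *Dnajc10*. *Hspa5* gene body values were 204, 184 and 421 TPM across Ctrl libraries and 326, 332 and 125 TPM across *Kmt5b* sKO libraries, and TSS values were 512, 261 and 1009 RPM across Ctrl libraries and 509, 586 and 209.7 RPM across *Kmt5b* sKO libraries. Ctrl library 3 was the highest of the 6 and *Kmt5b* sKO library 3 the lowest in both regions. Between the genotypes the gene body log2 fold change was -0.08 (SE 0.46, adjusted p = 0.966), the TSS log2 fold change was -0.37, and its gene body SD within genotypes exceeded that of 96.6% of all genes tested. *Hsp90b1* had 89.1, 81.5 and 108 TPM across Ctrl libraries and 109, 89.2 and 49.3 TPM across *Kmt5b* sKO libraries. *Dnajb9*, known as ERdj4, had 23.8, 21.3 and 51.4 TPM across Ctrl libraries and 34.0, 25.5 and 19.0 TPM across *Kmt5b* sKO libraries. Both were highest in Ctrl at library 3, and lowest in *Kmt5b* sKO at library 3. The same held for *Dnajb11* with 21.2, 19.7 and 31.6 TPM across Ctrl libraries and 28.8, 18.1 and 12.1 TPM across *Kmt5b* sKO libraries and *Dnajc3* with 20.6, 19.9 and 28.6 TPM across Ctrl libraries and 27.7, 21.7 and 13.3 TPM across *Kmt5b* sKO libraries.

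In the gene body, Ctrl library 3 was the highest Ctrl library and *Kmt5b* sKO library 3 the lowest *Kmt5b* sKO library for 7 of 8 ER members (87.5%), all but *Hspa13*. This held for 4 of the other 57 members tested (7.02%), for 15 of 23 ER folding and unfolded protein response genes outside the symbol rule (65.2%), and for 1834 of 12451 genes tested (14.7%). Among the ER genes outside the rule, *Xbp1*, a transcription factor of the unfolded protein response, had 139.6, 129 and 229 TPM across Ctrl libraries and 177, 147 and 109 TPM across *Kmt5b* sKO libraries, and *Pdia4*, a disulfide isomerase, had 36.1, 27.3 and 52.0 TPM across Ctrl libraries and 51.1, 34.2 and 16.9 TPM across *Kmt5b* sKO libraries. The median SD within genotypes (log2 scale) was 0.43 for ER members, 0.22 for the other members and 0.24 for all genes tested. For *Dnajc10*, *Hspa13* and *Dnajc1* the SD was 0.16, 0.19 and 0.26, near or below that of the median gene. With both libraries 3 left out, which was chosen after seeing these values, limma gave *Hspa5* a gene body log2 fold change of 0.76 (SE 0.14, adjusted p = 0.093) and called it higher, and its TSS estimate was 0.58. Without these libraries the gene body estimates of *Hsp90b1*, *Dnajb9*, *Dnajb11* and *Dnajc3* were 0.21, 0.38, 0.16 and 0.27, against -0.24, -0.22, -0.34 and -0.18 with them. Those of *Dnajc1* and *Hspa13* were 0.34 and -0.04, against 0.08 and -0.08. *Dnajc10*, an ER disulfide reductase, was the only ER member with separated gene body groups, at 17.4, 17.3 and 20.4 TPM across Ctrl libraries and 15.8, 15.2 and 12.4 TPM across *Kmt5b* sKO libraries (log2 fold change -0.34, SE 0.15, adjusted p = 0.337), and without both libraries 3 its estimate was -0.16 (adjusted p = 0.565). For *Dnajc3*, the inhibitor of PERK known as p58IPK, the TSS estimate was -0.75 (adjusted p = 0.365), and -0.36 (adjusted p = 0.619) without both libraries 3.

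**Figure D3:**
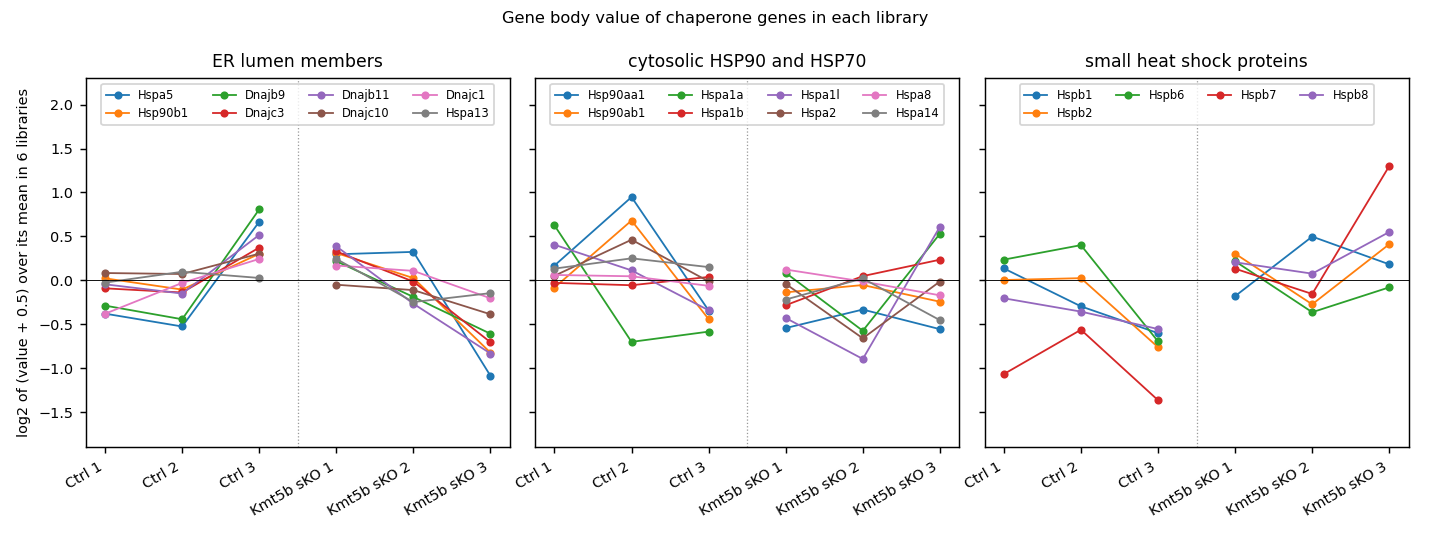
Gene body value of each member relative to its own mean over the 6 libraries (log2 scale, vertical axis) in Ctrl libraries 1 to 3 and *Kmt5b* sKO libraries 1 to 3, for ER lumen members, cytosolic HSP90 and HSP70 and small heat shock proteins. Lines join the values of 1 gene within a genotype and carry no order, and most ER genes are highest at Ctrl library 3 and lowest at *Kmt5b* sKO library 3, with *Hspa5* at 421 and 125 TPM.

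The promoter windows of the 3 members with an ER stress response element, the site of the ATF6 branch of the unfolded protein response, are shown because these genes had the pattern of libraries just described. They lie at chr2:34771840-34772139 (plus strand), chr10:86705395-86705694 (minus strand) and chr14:118937682-118937981 (plus strand) in GRCm38.p6 (RefSeq), and capitals mark the element on either strand, which includes a CCAAT box.
Hspa5: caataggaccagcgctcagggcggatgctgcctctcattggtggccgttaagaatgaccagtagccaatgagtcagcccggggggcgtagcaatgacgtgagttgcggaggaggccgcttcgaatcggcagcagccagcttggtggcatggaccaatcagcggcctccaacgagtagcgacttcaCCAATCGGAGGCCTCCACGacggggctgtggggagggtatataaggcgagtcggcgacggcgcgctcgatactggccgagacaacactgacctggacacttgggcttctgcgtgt
Hsp90b1: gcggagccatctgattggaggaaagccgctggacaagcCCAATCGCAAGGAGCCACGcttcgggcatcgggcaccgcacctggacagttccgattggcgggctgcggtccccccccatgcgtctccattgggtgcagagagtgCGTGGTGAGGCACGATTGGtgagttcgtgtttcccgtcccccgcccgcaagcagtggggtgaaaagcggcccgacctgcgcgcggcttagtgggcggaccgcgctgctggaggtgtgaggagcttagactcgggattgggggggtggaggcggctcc
Dnajc3: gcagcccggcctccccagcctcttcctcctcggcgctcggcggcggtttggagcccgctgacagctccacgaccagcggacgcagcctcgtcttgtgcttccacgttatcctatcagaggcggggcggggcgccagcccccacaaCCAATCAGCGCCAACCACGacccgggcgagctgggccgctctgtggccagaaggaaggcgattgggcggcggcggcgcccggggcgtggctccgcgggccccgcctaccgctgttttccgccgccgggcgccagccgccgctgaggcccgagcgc
The element starts 65 bases before the RefSeq start in *Hspa5*, 212 and 107 bases before it in *Hsp90b1* and 105 bases before it in *Dnajc3*. It was present in 3 of 53 members' windows (5.66%) and in 0.119% of all windows. The RefSeq start of *Hspa5* lies 120 nt downstream of the start listed, and that of *Hsp90b1* 65 nt. Windows of the other members with the library pattern held no exact match or were not in the table.

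The mitochondrial members gave no separated groups in either region, and 0 of 8 were called. *Hspd1* (HSP60) had gene body values of 89.5, 75.9 and 115 TPM across Ctrl libraries and 95.3, 73.0 and 68.8 TPM across *Kmt5b* sKO libraries (log2 fold change -0.23). *Hspe1* (HSP10), whose listed start lies 108 nt away on the opposite strand, had 69.5, 50.3 and 68.8 TPM across Ctrl libraries and 57.4, 50.6 and 41.9 TPM across *Kmt5b* sKO libraries (log2 fold change -0.32). The TSS values of *Hspe1* varied little, at 110.2, 114 and 123 RPM across Ctrl libraries and 116, 112 and 112 RPM across *Kmt5b* sKO libraries. Of their spliced transcripts, 52.2% (*Hspd1*) and 54.7% (*Hspe1*) of 36-nt stretches also occur in other genes. Exons make up only 22.2% and 17.8% of their gene bodies, and their introns were not compared. *Hspa9*, the mitochondrial HSP70 mortalin, had 108, 103 and 153 TPM across Ctrl libraries and 126, 115 and 104 TPM across *Kmt5b* sKO libraries in the gene body (log2 fold change -0.06), and its TSS value in Ctrl library 3, 548 RPM, was far above the other 5, which lay between 212 and 286 RPM. *Dnajc30* had the largest gene body estimate of this group, 0.81 (SE 0.38, adjusted p = 0.368), on 13 to 43 reads per library.

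Among the J domain proteins of the nucleus and the ribosome, *Dnajc9*, a histone chaperone that binds H3 and H4, had the lowest TSS estimate of any member. Its TSS values were 125, 96.5 and 86.4 RPM across Ctrl libraries and 42.6, 83.2 and 59.3 RPM across *Kmt5b* sKO libraries, all *Kmt5b* sKO libraries below all Ctrl libraries (log2 fold change -0.77, SE 0.25, adjusted p = 0.183), with a gene body estimate of -0.44 (adjusted p = 0.423). Cell cycle genes were lower in the same libraries: summed over a list of 12, their gene bodies held 574 to 699 TPM in Ctrl and 361 to 403 TPM in *Kmt5b* sKO. Of these genes, 7 of 12 were called lower, against 1.38% of all genes tested. These calls were lost for every gene without Ctrl library 1 or any 1 of the *Kmt5b* sKO libraries. Their part in the *Dnajc9* result was not tested.

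Of the 15 other J domain proteins, *Dnajc18* had TSS values of 15.5, 17.2 and 12.9 RPM across Ctrl libraries and 28.9, 26.4 and 26.7 RPM across *Kmt5b* sKO libraries, without overlap (log2 fold change 0.83, SE 0.28, adjusted p = 0.198), and a gene body estimate of 0.11. The gene bodies of *Dnajc5*, the synaptic vesicle protein CSP alpha, and of its low relative *Dnajc5b* also separated the groups. *Dnajc5* had 49.7, 51.7 and 46.1 TPM across Ctrl libraries and 56.6, 51.8 and 55.8 TPM across *Kmt5b* sKO libraries (log2 fold change 0.15, adjusted p = 0.601), and *Dnajc5b* had 0.380, 0.350 and 0.360 TPM across Ctrl libraries and 0.530, 0.600 and 0.830 TPM across *Kmt5b* sKO libraries (log2 fold change 0.41, SE 0.24, adjusted p = 0.479). *Hspb11*, an intraflagellar transport protein despite its symbol, had gene body values of 7.09, 6.58 and 6.91 TPM across Ctrl libraries and 6.32, 6.55 and 5.60 TPM across *Kmt5b* sKO libraries, lower without overlap (log2 fold change -0.15).

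The pausing index of members was above the median of all genes in every library. The median index over members was 2.00 against 1.53 for all genes (geometric means of 6 libraries), 42 of 63 members lay above the latter, and 7 had an index under 1. An index of 1 does not mark equal read density in both regions, because only the gene body value is divided by length. The highest were *Dnajc1* with 8.92, *Dnajc10* with 5.10, *Dnaja4* with 5.08, *Dnajc17* with 4.77 and *Dnajc9* with 4.53 (geometric means over 6 libraries), and the same 5 led in the Ctrl libraries alone. The lowest were *Dnajc7* with 0.0569, *Hspb2* with 0.430, *Dnajc21* with 0.439, *Dnajb5* with 0.617 and *Hspa12b* with 0.679. For *Dnajc7* the listed start lies 541 nt upstream of the RefSeq start, which therefore falls outside the 400-nt TSS region, and the TSS region held only 2.66, 1.72 and 4.55 RPM across Ctrl libraries and 3.28, 3.30 and 3.68 RPM across *Kmt5b* sKO libraries.

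Between genotypes, the index of members had a median log2 difference of 0.11, against 0.05 for all genes with an index, with 40 members positive and 23 negative. Without Ctrl library 2 the median turned to -0.016, with 30 members positive and 33 negative, against 0.04 for all genes. The lowest unadjusted p was that of *Dnajc18*, whose index was 0.952, 0.975 and 0.851 across Ctrl libraries and 1.54, 1.71 and 1.41 across *Kmt5b* sKO libraries (log2 difference 0.74, adjusted p = 1.0). *Hspb2* had 0.320, 0.333 and 0.424 across Ctrl libraries and 0.502, 0.470 and 0.593 across *Kmt5b* sKO libraries, *Dnajc12* had 2.57, 2.69 and 1.51 across Ctrl libraries and 2.94, 3.27 and 3.36 across *Kmt5b* sKO libraries, and *Hspb11* had 3.79, 3.58 and 2.82 across Ctrl libraries and 4.20, 5.55 and 4.60 across *Kmt5b* sKO libraries, each higher in every *Kmt5b* sKO library. *Dnaja2* had 1.57, 1.24 and 1.73 across Ctrl libraries and 1.12, 1.11 and 0.904 across *Kmt5b* sKO libraries and *Dnajc17*, a splicing-associated J domain protein, had 6.11, 4.60 and 5.24 across Ctrl libraries and 4.57, 4.48 and 3.91 across *Kmt5b* sKO libraries, each lower in every *Kmt5b* sKO library. These 6 are the members without overlap, and none passed the adjusted threshold.

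**Figure D4:**
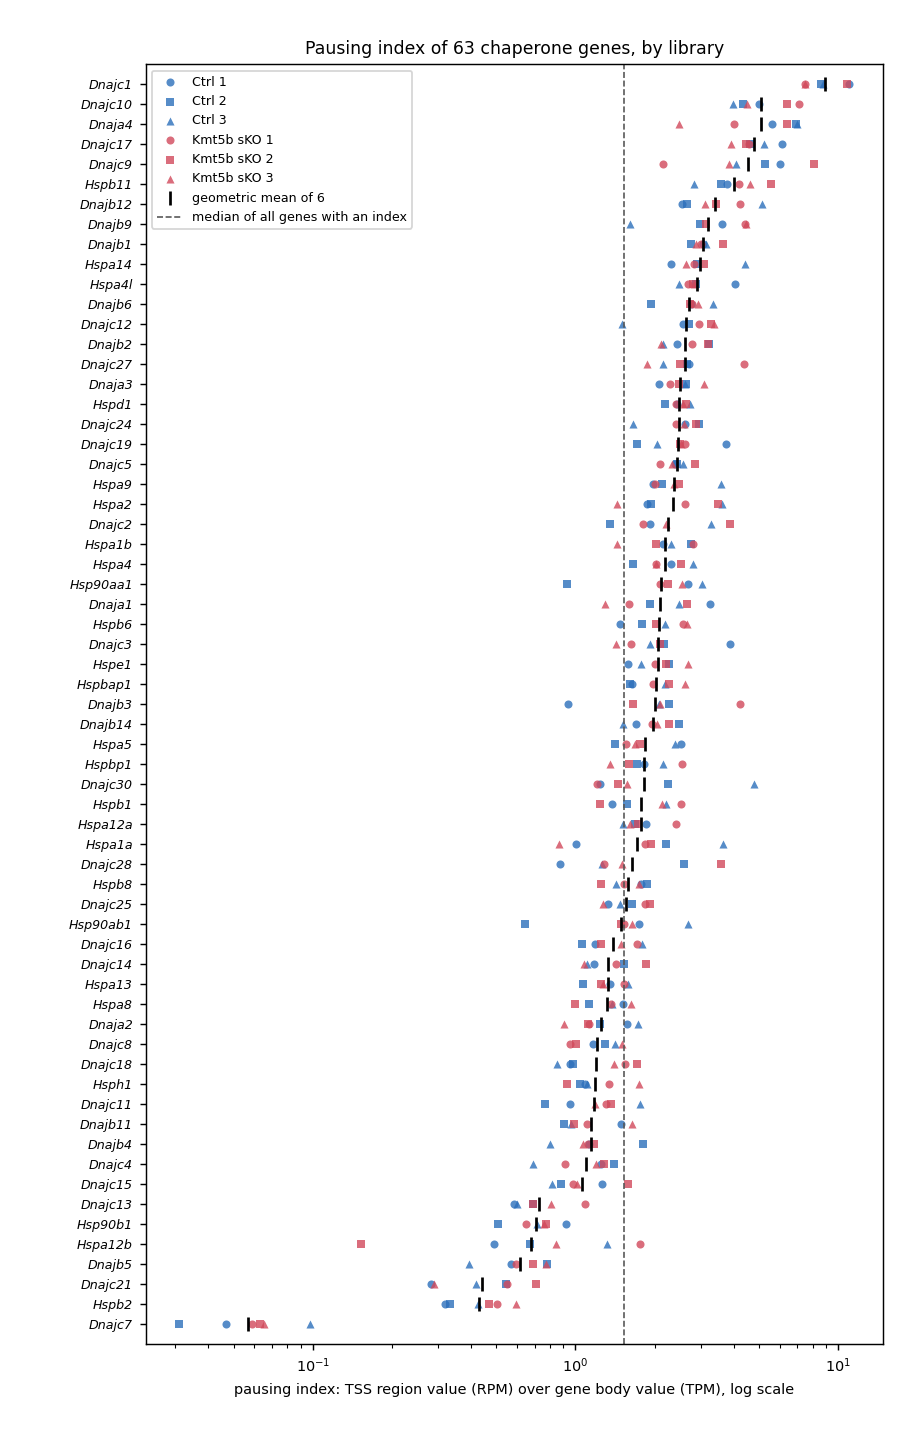
Pausing index (TSS region RPM over gene body TPM, log axis) of 63 members in each of the 6 libraries, ordered by the geometric mean of the 6 (black bar), with the median of all genes as a dashed line. The bars run from 0.0569 (*Dnajc7*) to 8.92 (*Dnajc1*), 42 of them lie right of the dashed line, and Ctrl and *Kmt5b* sKO points mingle for most genes.

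Genes that work with these chaperones gave calls close to the shares of all genes. Of 80 such genes outside the symbol rule, in lists of heat shock factors, HSP90 and HSP70 co-chaperones, the TRiC chaperonin, prefoldin, ER folding genes and other J domain genes, 78 were tested. In the TSS region 1 was called higher, against 0.932% of all genes tested, and 0 lower, against 0.731%. In the gene body 1 was called higher, against 1.61% of all genes, and 0 lower, against 1.38%. The TSS call was *Unc45b*, the HSP90 co-chaperone that folds myosin in striated muscle, with 15.0, 23.0 and 8.90 RPM across Ctrl libraries and 42.9, 31.7 and 35.0 RPM across *Kmt5b* sKO libraries (log2 fold change 1.29, SE 0.32, adjusted p = 0.0718). The gene body call was *Hsf2bp*, a binding partner of heat shock factor 2, with 15.4, 13.9 and 15.9 TPM across Ctrl libraries and 24.3, 22.4 and 27.8 TPM across *Kmt5b* sKO libraries (log2 fold change 0.70, SE 0.14, adjusted p = 0.0750). *Hsf1*, the main heat-responsive factor, had 34.7, 31.7 and 39.0 TPM across Ctrl libraries and 36.9, 32.5 and 35.5 TPM across *Kmt5b* sKO libraries (log2 fold change -0.0029), and *Hsf2* had an estimate of 0.38 (adjusted p = 0.199). *Cryab*, a small heat shock protein that the symbol rule does not take, had 103, 135 and 81.0 TPM across Ctrl libraries and 205, 166 and 254 TPM across *Kmt5b* sKO libraries, without overlap (log2 fold change 0.98, SE 0.23, adjusted p = 0.107), and its gene body was called higher by edgeR, by DESeq2, and by limma with library medians set equal or without Ctrl library 2. With limma, *Unc45b* kept its TSS call without Ctrl library 2 but not without any other single library, and *Hsf2bp* kept its gene body call without Ctrl library 3 but not without any other. The ER folding genes, the TRiC chaperonin, prefoldin and the other J domain genes gave 0 calls, and over the 78 genes the median log2 fold change was -0.01 in both regions.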

How the data were processed

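PRO-seq libraries of 3 Ctrl and 3 *Kmt5b* sKO samples were used, with groups and replicate numbers from the labels. The authors used Trimmomatic 0.39 for trimming, STAR 2.6.1d for alignment to GRCm38, with 1 position drawn at random where several fitted, and Picard 2.18.16, and counted sense-strand reads of protein-coding isoforms, 1 per gene. The TSS values that the authors deposited are RPM although headed TPM, and the gene body values that they deposited are TPM. The tests were planned for TPM and hold for RPM, since all TSS regions have 1 length. Of the listed genes, 1343 had a TSS mean and 326 a gene body mean under 0.5. The number of value columns left unused was 0.

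Genes on X and Y and genes with a mean under 0.5 in either region were left out, which kept 12451. The main test was limma 3.58.1 in R 4.3.3 (lmFit, eBayes with a trend) on log2(value + 0.5), genotype being the only term. Calls needed an adjusted p (Benjamini-Hochberg) below 0.1. For the pausing index a log2 ratio without pseudocount or trend was used, where all values were above 0. Whole reads were recovered in each library for 100% of TSS values under 60 RPM and of gene body values in bodies under 2000 nt, within 0.0051 plus 0.02% of the value, and tested with edgeR 4.0.16 (quasi-likelihood) and DESeq2 1.42.0. On these reads edgeR called 129 genes higher and 150 lower in the TSS region and 395 and 353 in the gene body, and DESeq2 134 and 161, and 713 and 582.

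The members follow from their symbols. The roles, the lists of partner genes and cell markers and the rule for naming were chosen with earlier results of these data known. Named were a panel of 14 main chaperones, up to 5 members per region and direction whose genotypes did not overlap (by size of the estimate), and members left out of the test. The choice of any other gene named followed its values. All tests were first run on simulated data. Promoter windows are those of RefSeq, build GRCm38.p6, matched by symbol, and motifs were searched on both strands. Stretches of 36 nt of the members' spliced transcripts were compared with the transcripts of other genes in a GRCm38 annotation. The shares therefore do not cover reads from introns. Python 3.11.15, pandas 2.3.3 and matplotlib 3.10.9 were used besides.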

Additional observations from a re-analysis of the deposited data

How the results depend on the processing

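Of 827 values that alternatives gave for 47 results, 770 had the same direction and side of the threshold, 12 passed it newly, 0 dropped below it and 45 changed sign, all of the latter estimates of members that were not called. Since no member was called in the main fit, no member's estimate could drop below the threshold. Members called higher in the TSS region numbered 0, but 1 with edgeR, 1 with DESeq2 and 0 to 2 when 1 library was left out (without Ctrl library 2 *Hspb2* and *Dnajb5*, without *Kmt5b* sKO library 2 *Hspb2*). Members called higher in the gene body numbered 0, but 1 with library medians set equal (*Dnaja4*), 1 with both replicates 3 left out (*Hspa5*), 2 with edgeR (*Dnaja4* and *Hspb8*) and 3 with DESeq2 (these and *Dnajb5*). Members called lower there numbered 0, but 2 with DESeq2 and 0 to 2 when 1 library was left out (without Ctrl library 3), both times *Hsp90aa1* and *Hspa12a*. The setting without both replicates 3 was chosen after seeing the data. Partner genes called higher in the TSS region numbered 1, but 0 without the filter on low values, without the trend, at a threshold of 0.05, with the replicate block and with both replicates 3 left out, and 0 to 2 when 1 library was left out. In the gene body they numbered 1, but 0 at a mean of at least 2, at a threshold of 0.05, with the replicate block and with both replicates 3 left out, 3 with library medians set equal (*Cryab*, *Hsbp1* and *Hsf2bp*), 2 with edgeR (*Cryab* and *Hsf2bp*), 3 with DESeq2 (*Cryab*, *Hsbp1* and *Hsf2bp*) and 0 to 1 when 1 library was left out. The share of windows over tested genes alone was 11.2% for 2 units of the heat shock element, 0.397% for 3 units, 38.8% for the CCAAT box, 6.61% for TATAAA and 3.47% for TGACGTCA. The cause of these changes was not tested.

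With both replicates 3 left out, these estimates changed sign in the TSS region: *Dnaja1* to 0.089, *Dnajb1* to -0.013, *Hsp90ab1* to 0.12, *Hsp90b1* to 0.26, *Hspa1a* to 0.13, *Hspa5* to 0.58, *Hspa9* to 0.31, *Hspd1* to 0.15 and *Hspe1* to 0.026. In the gene body, *Dnajb1* went to -0.19, *Hsp90b1* to 0.21, *Hspa1a* to -0.21, *Hspa1b* to -0.075, *Hspa5* to 0.76, *Hspa8* to 0.0012, *Hspa9* to 0.19 and *Hspd1* to 0.017. The *Hspa1b* gene body estimate was -0.00043 with edgeR and -0.0072 with DESeq2. Leaving out 1 library at a time gave TSS estimates from -0.35 to 0.064 for *Dnaja1*, -0.029 to 0.30 for *Dnajb1*, -0.36 to 0.11 for *Hsp90ab1*, -0.48 to 0.13 for *Hsp90b1*, -0.41 to 0.024 for *Hspa1a*, -0.86 to 0.12 for *Hspa5*, -0.17 to 0.13 for *Hspa8*, -0.41 to 0.27 for *Hspa9*, 0.70 to 1.21 for *Hspb2*, -0.39 to 0.061 for *Hspd1* and -0.058 to 0.018 for *Hspe1*. It gave gene body estimates from -0.14 to 0.27 for *Dnajb1*, -1.04 to -0.39 for *Hsp90aa1*, -0.44 to 0.12 for *Hsp90ab1*, -0.47 to 0.10 for *Hsp90b1*, -0.025 to 0.66 for *Hspa1a*, -0.10 to 0.16 for *Hspa1b*, -0.32 to 0.39 for *Hspa5*, -0.11 to 0.040 for *Hspa8* and -0.16 to 0.12 for *Hspa9*.

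Over all genes, calls in the TSS region, 116 higher and 91 lower, came to 99 and 117 with library medians set equal, which moved the median estimate of members to -0.02, and to 0 and 0 without the filter or without the trend. Without Ctrl library 1, 2 or 3 they came to 1 and 0, 277 and 131, and 130 and 140, and without *Kmt5b* sKO library 1, 2 or 3 to 14 and 2, 79 and 53, and 17 and 29. In the gene body, 200 and 172 calls came to 1 and 0 at a threshold of 0.05, to 0 and 0 without Ctrl library 1 or without *Kmt5b* sKO library 1, 2 or 3, and to 330 and 506 without Ctrl library 3. The median pausing index difference of members, 0.11, turned to -0.016 without Ctrl library 2. Replicate numbers did not pair the libraries: deviations of same-numbered libraries correlated at -0.03, -0.13 and -0.16 in the TSS region and -0.15, -0.17 and -0.33 in the gene body. With the number as a replicate block, 0 genes and 0 members were called in either region, and 5 members were higher and 2 lower in the TSS region at an unadjusted p under 0.05. The 3 libraries per genotype, and the 61.5 TSS reads behind the median member in the shallowest library, limit the differences that could be detected.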
